A study of Homo sapiens with 9 samples.

Results

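The transcripts of 9 replication-independent histone variant genes, which end in a poly(A) tail, were followed across RNA libraries labelled as protamine-transfected cells and their control. They were the H3.3 genes H3-3A and H3-3B, the H2A.Z genes H2AZ1 and H2AZ2, the H2A variants H2AX and H2AJ, the macroH2A genes MACROH2A1 and MACROH2A2, and the linker histone gene H1-10. The members were chosen by symbol, current or older, and all 9 were found among the 57338 Ensembl genes of the deposited table. By the labels and methods, the RNA came from HEK293T cells, an established human embryonic kidney line, transfected with a pcDNA3.1 plasmid, whose CMV promoter is active in many cell types. The plasmid coded for EGFP alone (empty vector), for human PRM1 fused to EGFP (hPRM1) or for human PRM2 fused to EGFP (hPRM2). The values of the 3 libraries labelled hPRM1 go against that label and that cell line, as given before the results, so they are named by their label only. By the methods, live cells with a high EGFP signal were sorted 3 days after transfection, and the amount of plasmid per cell was not set. Each empty vector and hPRM2 library would thus hold only the brightest cells of 1 line. For the hPRM1-labelled libraries the values go against that line. Each of the 3 groups had 3 libraries, numbered as replicates 1 to 3, and no source states whether they were separate transfections, so p-values measure the spread between these libraries only.

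Histones package DNA into nucleosomes. Most histone protein is made during S phase from replication-dependent genes, whose messages end in a stem-loop without a poly(A) tail. The variants described here are made throughout the cell cycle from polyadenylated messages and replace the canonical histones at particular places: H3.3 at active genes, telomeres and pericentric repeats, H2A.Z around promoters, and macroH2A on silent chromatin. H2AX is the H2A form that kinases phosphorylate at DNA breaks. Protamines replace most histones in sperm, which raises the question of what happens to the transcripts of the histones when a protamine is made in a somatic cell.

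The libraries were read from the 3′ end of polyadenylated RNA, which by design places reads near the poly(A) site of each member. The hexamers AATAAA and ATTAAA, which signal cleavage and polyadenylation, were searched on the transcript strand in the last 50 bases of the protein-coding transcripts of GENCODE 29 (GRCh38). AATAAA was found for 5 members and ATTAAA, without AATAAA, for another 3. Of all 19684 protein-coding genes, 69.8% had AATAAA and a further 12.1% had ATTAAA in that window. No match was found in the window for MACROH2A1. Stretches at the ends of the 8 matching transcripts are shown 5′ to 3′ with the hexamer in capitals. They were found by sequence alone, and whether these hexamers serve as poly(A) signals was not tested. Where the reads lie was not measured.
H3-3A, chr1:226071986-226072001, plus strand: aaatacATTAAActat
H3-3B, chr17:75776434-75776459, minus strand: gactaaAATAAAatttttgaagttaa
H2AZ1, chr4:99948088-99948113, minus strand: aagttcAATAAAggtcatatcccaaa
H2AZ2, chr7:44826791-44826819, minus strand: gatggaATTAAAtatattctgtgtaaaaa
H2AX, chr11:119093875-119093904, minus strand: aattttATTAAAggattgttttttttttaa
H2AJ, chr12:14774999-14775026, plus strand: ggagccAATAAAgttggtgaaaatcgtt
MACROH2A2, chr10:70112247-70112276, plus strand: gaaaaaAATAAAagatccagtgtctttctt
H1-10, chr3:129314771-129314798, minus strand: gggcacAATAAAgcgtttaaacctttca

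Values are RPKM, the reads on a gene divided by the reads of the library, scaled to RPM, and by the gene length in kilobases. Because 3′ reads do not scale with gene length, an RPKM compares one gene between libraries better than it compares genes with each other. Reads on genes, estimated from the spacing of low RPKM values, ranged from 7870000 to 10690000 in the empty vector libraries, from 4180000 to 5820000 in the hPRM1-labelled libraries and from 1270000 to 2640000 in the hPRM2 libraries. PRM2 lay between 36130 and 71220 RPKM in the hPRM2 libraries and was listed at 0 in the other 6, whereas PRM1 was listed at 0 in all 9. Whether 3′ reads of the plasmid transcript fall inside the annotated PRM1 gene was not tested, and every direction given for the hPRM1-labelled libraries rests on that label.
All 7 HEK293T markers, among them LIN28B, PAX2 and NEFL, were listed at 0 in the 3 hPRM1-labelled libraries, while 6 of the 7 were above 0 in every empty vector library and 5 in every hPRM2 library. Of 11 erythroid markers, among them HBA1, HBA2 and HBB, 10 were above 0 in all hPRM1-labelled libraries, where their summed level was 2061000 to 2267000 RPKM, against 3.09 to 18.2 in the empty vector and 2.16 to 16.3 in hPRM2. Summed levels of the 10 neutrophil and monocyte markers were 6360 to 7418 RPKM in the hPRM1-labelled libraries, at most 3.02 in the empty vector and at most 20.7 in hPRM2, and those of the 9 lymphocyte markers were 637.5 to 866 RPKM against 0 in the other 6 libraries. The 6 platelet markers summed to 335.9 to 594.9 RPKM in the hPRM1-labelled libraries, 16.9 to 32.1 in the empty vector and 8.61 to 13.98 in hPRM2. The library names that the submitters gave for the hPRM1-labelled libraries also belong to another run of numbers than those of the other 6. These values move with every hPRM1 result given here, and their part in the results was not tested. In bulk RNA, fewer cells of a type and less RNA per cell cannot be told apart.

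Neither H3.3 gene was called in any comparison of the deposited values, and H3-3A had the highest group mean of the 9 members in every group. H3-3A (chr1:226061851-226072001) and H3-3B (chr17:75776434-75785893) code for the same H3.3 protein, which HIRA and DAXX chaperone systems place outside replication, although their messages differ. Over the 408 bases of the coding sequences, 320 (78.4%) were identical, and the first 60 bases are shown with the differing bases in capitals, since reads of these genes can be told apart even in the conserved coding part.
H3-3A, GRCh38 chr1:226064352-226064411: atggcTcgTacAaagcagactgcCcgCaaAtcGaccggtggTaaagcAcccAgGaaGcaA
H3-3B, GRCh38 chr17:75779115-75779174: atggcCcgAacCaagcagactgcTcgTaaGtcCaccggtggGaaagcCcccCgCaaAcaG
In the empty vector, H3-3A had 2526, 2775 and 2401 RPKM in replicates 1, 2 and 3. The hPRM1-labelled libraries had 2111, 2577 and 2689 RPKM, and the hPRM2 libraries 2971, 2459 and 2728 RPKM. The 3 groups overlapped throughout. The log2 fold change on the log2(RPKM + 1) scale was -0.07 (SE 0.14, adjusted p = 0.681) between the hPRM1-labelled libraries and the empty vector, and 0.08 (SE 0.19, adjusted p = 0.805) between hPRM2 and the empty vector (limma, Benjamini-Hochberg over all genes tested).
H3-3B lay lower, at 348.6, 386.7 and 313.9 RPKM in the empty vector, 276.6, 290.7 and 293 in the hPRM1-labelled libraries and 552.4, 390.6 and 298.5 RPKM in hPRM2. Its values in the hPRM1-labelled libraries were below each of the empty vector values, but the difference of -0.28 (SE 0.15, limma adjusted p = 0.116) was not called, nor was that of 0.20 in hPRM2 (SE 0.31, limma adjusted p = 0.693).
Most other genes were lower in the hPRM1-labelled libraries, with a median log2 fold change of -1.72 over 13588 genes tested. Over the 6983 genes at 10 RPKM or more in 3 or more of the 6 libraries, it was -2.43. Relative to the median of all genes tested, H3-3A lay 1.65 and H3-3B 1.44 higher. H3-3A ranked between 77 and 106 among all genes in the empty vector, between 16 and 21 in the hPRM1-labelled libraries and between 117 and 145 in hPRM2. H3-3B had ranks 486 to 603 in the empty vector and 186 to 225 in the hPRM1-labelled libraries. After median-of-ratios rescaling, which brings the median of all genes from -1.72 to 0.14, H3-3A was called higher in the hPRM1-labelled libraries (log2 fold change 2.44, limma adjusted p = 1.94e-05), as was H3-3B (2.22, limma adjusted p = 3.7e-05). The direction for the H3.3 genes against the empty vector therefore depends on the scaling.

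**Figure D1:**
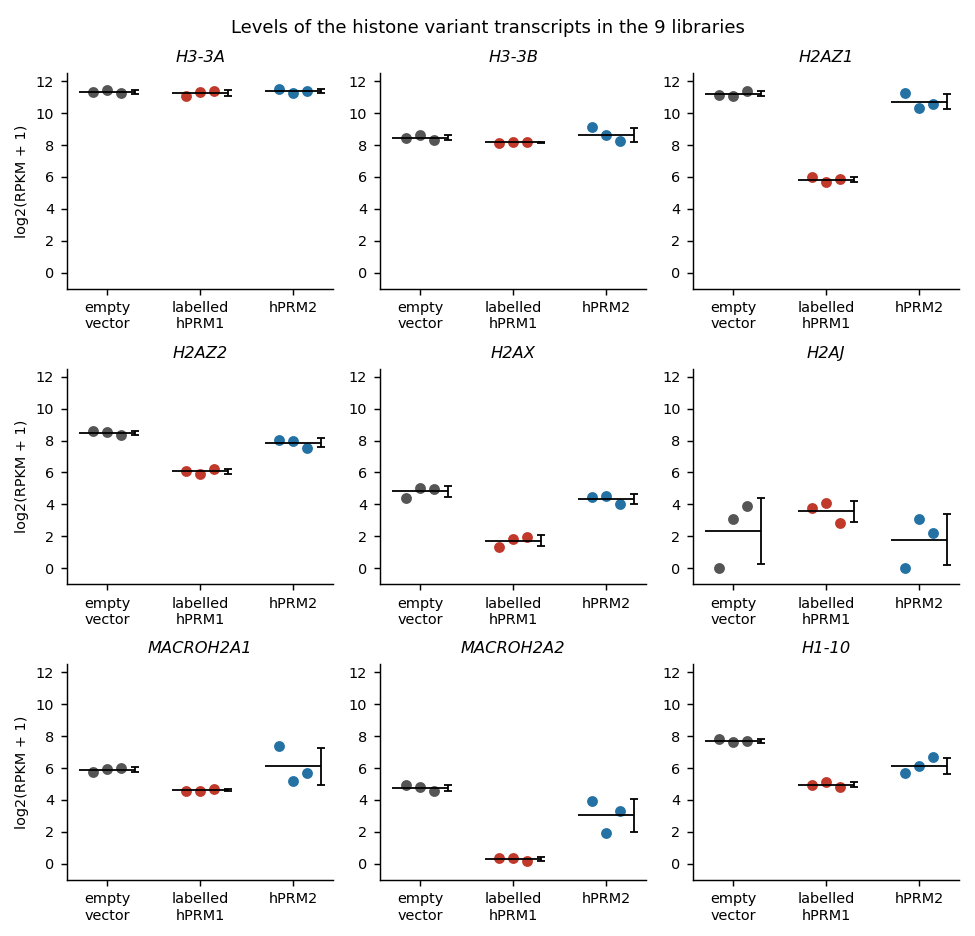
Level of each histone variant transcript as log2(RPKM + 1) (y axis) in the 3 empty vector libraries, the 3 hPRM1-labelled libraries and the 3 hPRM2 libraries (x axis). Points are libraries in replicate order, lines are group means and bars at the right of each group are SDs; H3-3A lies between 2111 and 2971 RPKM in all 9 libraries, whereas H2AZ1 and MACROH2A2 are lowest in the hPRM1-labelled libraries.

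H2AZ1 and MACROH2A2 had the largest differences of the 9 members between the hPRM1-labelled libraries and the empty vector in the deposited scaling, on the log2(RPKM + 1) scale. H2AZ1 came first there, but with a pseudocount of 0.1 in place of 1 MACROH2A2 did (-6.38 against -5.41), and after median-of-ratios rescaling H2AJ and MACROH2A2 were ahead of H2AZ1. H2AZ1 (chr4:99948086-99950388) and H2AZ2 (chr7:44826791-44848083) code for the H2A.Z.1 and H2A.Z.2 proteins, which the SRCAP and TIP60/p400 complexes exchange into nucleosomes near promoters. Of the 384 coding bases, 309 (80.5%) were identical, and the first 60 bases, which cross an intron in both genes, are shown with the differing bases in capitals to mark how far these paralogs have diverged.
H2AZ1, GRCh38, within chr4:99949684-99950170: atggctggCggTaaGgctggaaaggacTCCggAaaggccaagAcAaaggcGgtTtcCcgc
H2AZ2, GRCh38, within chr7:44843298-44847971: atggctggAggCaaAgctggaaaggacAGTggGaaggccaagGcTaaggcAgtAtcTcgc
H2AZ1 had 2292, 2187 and 2709 RPKM in the empty vector, close to H3-3A. It had 62.5, 49.8 and 56.5 RPKM in the hPRM1-labelled libraries and 2466, 1292 and 1514 RPKM in hPRM2. The hPRM1-labelled libraries were far below all the others, and those of hPRM2 overlapped the empty vector through replicate 1. The log2 fold change between the hPRM1-labelled libraries and the empty vector was -5.39 (SE 0.16, limma adjusted p = 2.46e-06), a distance of -3.67 from the median of all genes, and it was still -2.89 after median-of-ratios rescaling (limma adjusted p = 5.32e-05) and -3.51 after quantile normalization (limma adjusted p = 1.62e-05). For hPRM2 it was -0.50 (SE 0.29, limma adjusted p = 0.313) and not called.
H2AZ2 had 379.3, 377.4 and 327.9 RPKM in the empty vector, 68.2, 59.5 and 71.9 in the hPRM1-labelled libraries and 262.4, 254.7 and 184 RPKM in hPRM2. All 3 groups were apart from each other. The log2 fold change was -2.43 (SE 0.16, limma adjusted p = 1.97e-05) between the hPRM1-labelled libraries and the empty vector, but 0.07 after median-of-ratios rescaling (limma adjusted p = 0.779), so that the call on H2AZ2 rests on the deposited scaling. For hPRM2 the difference of -0.64 (SE 0.28, limma adjusted p = 0.202) was not called.
A paralog's share of the summed RPKM of its pair does not depend on how libraries are scaled to each other. The log2 ratio carries a pseudocount of 1, so it does depend on the scaling, most where values are low. H2AZ2 made up 14.2%, 14.7% and 10.8% of the summed H2A.Z RPKM in the empty vector, 52.2%, 54.4% and 56.0% in the hPRM1-labelled libraries and 9.62%, 16.5% and 10.8% in hPRM2. In RPKM, the balance was thus mostly H2AZ1 in the empty vector and near equality in the hPRM1-labelled libraries. The hPRM2 libraries lay around those of the empty vector. The shares themselves depend on the gene lengths used, since 3′ reads do not scale with length. In hPRM1-labelled replicate 1, H2AZ1 had an estimated 265 reads and H2AZ2 75.0 to 1410, by its shortest and longest transcript. The difference between groups rests less on these lengths. The log2 ratio of H2AZ2 to H2AZ1 was 2.96 higher in the hPRM1-labelled libraries than in the empty vector (two-sided exact permutation test, n = 3 per group, p = 0.1, below which 3 against 3 libraries cannot go), and 0.14 lower in hPRM2, a difference of -0.14 (exact permutation test, p = 0.9).

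H2AX was lower in the hPRM1-labelled libraries, while the values of H2AJ overlapped between the groups. H2AX (chr11:119093854-119095467) carries the C-terminal serine that ATM, ATR and DNA-PK phosphorylate at DNA breaks, and H2AJ (chr12:14774383-14778002) is an H2A variant known from senescent cells. H2AX had 20.5, 31.6 and 30.6 RPKM in the empty vector, 1.501, 2.61 and 2.95 in the hPRM1-labelled libraries and 20.7, 22.5 and 15.04 RPKM in hPRM2. With its 1614-base transcript, the values in the hPRM1-labelled libraries correspond to an estimated 11.9, 14.9 and 20.8 reads, against 220 to 446 reads in the empty vector. The log2 fold change was -3.09 (SE 0.28, limma adjusted p = 7.54e-05) for the hPRM1-labelled libraries and -0.48 (SE 0.42, limma adjusted p = 0.486) for hPRM2, where the libraries overlapped those of the empty vector. After median-of-ratios rescaling the hPRM1 value was -0.96, below the 2-fold threshold.
H2AJ was listed at 0 in empty vector replicate 1 and had 7.66 and 14.04 RPKM in replicates 2 and 3. It had 12.6, 16.3 and 6.18 RPKM in the hPRM1-labelled libraries, and in hPRM2 it was listed at 0 in replicate 1 with 7.58 and 3.70 RPKM in the others. The groups overlapped, and neither the difference of 1.23 for the hPRM1-labelled libraries (SE 0.997, limma adjusted p = 0.289) nor that of -0.56 for hPRM2 (SE 1.24, limma adjusted p = 0.786) was called. At most 59.2 estimated reads stood behind any of these values, and in hPRM2 they were 0, 3.79 and 2.32 reads in replicates 1, 2 and 3.
As a share of the summed H2AX and H2AJ RPKM, H2AJ gave 0%, 19.5% and 31.5% in the empty vector, 89.3%, 86.2% and 67.7% in the hPRM1-labelled libraries and 0%, 25.2% and 19.7% in hPRM2. In RPKM, H2AJ exceeded H2AX in the hPRM1-labelled libraries and in none of the other 6. In estimated reads, which are not divided by length, hPRM1-labelled replicate 3 had 12.6 for H2AJ and 20.8 for H2AX. The log2 ratio was 4.32 higher in the hPRM1-labelled libraries than in the empty vector (exact permutation test, two-sided, p = 0.1, again the lowest possible), and its difference was -0.09 in hPRM2 (exact permutation test, p = 0.9). The size of the former depends on low values, being 5.82 with a pseudocount of 0.1, 2.73 with a pseudocount of 5 and 3.34 without empty vector replicate 1.

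The balance of the macroH2A genes also lay apart from that of the empty vector, in the hPRM1-labelled libraries and in hPRM2. MacroH2A proteins carry a large globular macrodomain behind an H2A-like part. MACROH2A1 (chr5:135333900-135399914) had 52.6, 60.2 and 63.8 RPKM in the empty vector, 22.9, 22.4 and 24.8 in the hPRM1-labelled libraries and 169.1, 35.6 and 51.4 RPKM in hPRM2. The value of hPRM2 replicate 1 stood above all others and the values of its partners below those of the empty vector. The fitted change was -1.29 on the log2 scale for the hPRM1-labelled libraries (SE 0.17, limma adjusted p = 0.000453), which is 0.42 above the median of all genes and turned into a call of higher after median-of-ratios rescaling (1.15, limma adjusted p = 0.00209). In the fit of all 9 libraries it missed the threshold (limma adjusted p = 0.0507). For hPRM2 it was 0.21 (SE 0.59, limma adjusted p = 0.836), and -0.45 without replicate 1.
MACROH2A2 (chr10:70052796-70112280) had 29.7, 26.7 and 22.5 RPKM in the empty vector. In the hPRM1-labelled libraries it had 0.296, 0.275 and 0.111 RPKM, which for the 1980-base transcript correspond to 2.98, 1.99 and 0.991 estimated reads, so to 6 reads in all. The hPRM2 libraries lay in between, at 14.2, 2.72 and 8.98 RPKM, and none reached the empty vector. For the same transcript, these values correspond to 64.7, 5.98 and 24.7 estimated reads. Relative to library depth, the summed reads gave a ratio of 113 between the empty vector and the hPRM1-labelled libraries (95% exact interval 52.0 to 310, covering counting error only). The fitted log2 fold change, which depends on the pseudocount at such levels, was -4.47 (SE 0.21, limma adjusted p = 6.13e-06) and was called lower under both other scalings, at -3.07 after median-of-ratios rescaling and -3.10 after quantile normalization. For hPRM2 it was -1.72 (SE 0.63, limma adjusted p = 0.157) and not called with all libraries, whereas without hPRM2 replicate 1 it was -2.15 and called (limma adjusted p = 0.0407).
MACROH2A2 made up 36.1%, 30.7% and 26.1% of the summed macroH2A RPKM in the empty vector, 1.27%, 1.21% and 0.444% in the hPRM1-labelled libraries and 7.73%, 7.10% and 14.9% in hPRM2. All 3 groups were apart. The log2 ratio of MACROH2A2 to MACROH2A1 differed from the empty vector by -3.18 in the hPRM1-labelled libraries and by -1.92 in hPRM2 (two-sided exact permutation tests, n = 3 per group, p = 0.1 each, the smallest possible). With a pseudocount of 0.1 in place of 1 the former was -5.05, and with a pseudocount of 5 it was -1.41, smaller than the -1.50 of hPRM2. The difference between the hPRM1-labelled libraries and hPRM2 was -1.25 (exact permutation test, p = 0.1), but with a pseudocount of 5 in place of 1 it was 0.09.

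H1-10 (chr3:129314771-129316277), a linker histone that binds DNA between nucleosomes and is made in many tissues, was lower than in the empty vector in every hPRM1-labelled and every hPRM2 library. It had 226.6, 194 and 206.1 RPKM in the empty vector, 29.4, 34.0 and 27.6 in the hPRM1-labelled libraries and 49.8, 67.5 and 100.9 RPKM in hPRM2. Against the empty vector, the log2 fold change was -2.75 for the hPRM1-labelled libraries (SE 0.17, limma adjusted p = 1.55e-05), but -0.27 once rescaled by the median of ratios (limma adjusted p = 0.174). For hPRM2 it was -1.57 (SE 0.35) and just missed the threshold (limma adjusted p = 0.0643). It was called when all 9 libraries were fitted together (limma adjusted p = 0.0124) and, at -1.33, without hPRM2 replicate 1 (limma adjusted p = 0.0299).

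**Figure D2:**
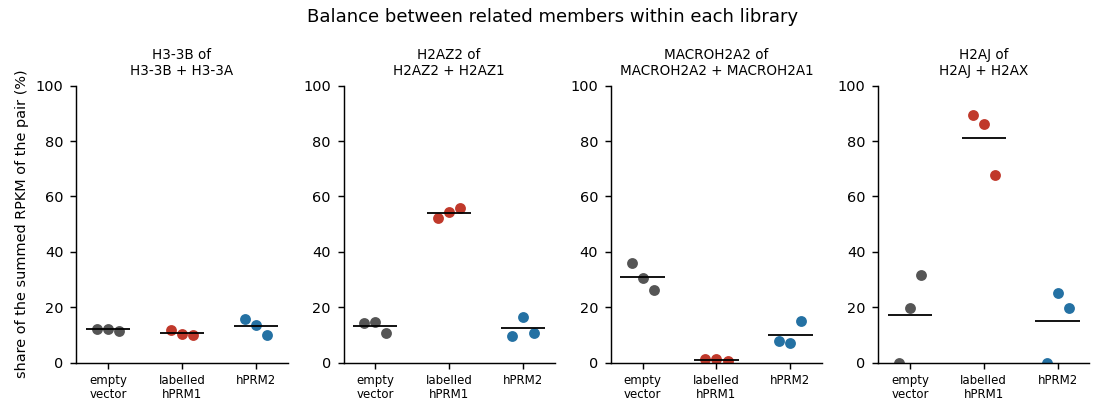
Share of the first-named gene in the summed RPKM of 2 related members (y axis, %), for each library of the 3 groups (x axis); lines are group means. H3-3B lies between 9.83% and 15.7% everywhere, while H2AZ2 is at 52.2% to 56.0% and MACROH2A2 at 0.444% to 1.27% in the hPRM1-labelled libraries.

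Among the 4 pairs, only the H3.3 genes had overlapping shares in all 3 groups. H3-3B gave 12.1%, 12.2% and 11.6% of the summed H3.3 RPKM in the empty vector, 11.6%, 10.1% and 9.83% in the hPRM1-labelled libraries and 15.7%, 13.7% and 9.86% in hPRM2, and the log2 ratio differed by -0.21 and 0.12 from the empty vector (two-sided exact permutation tests, n = 3 per group, p = 0.2 and p = 0.7). Of the 12 ratio comparisons computed, 7 had groups that did not overlap, each with p = 0.1 by the exact permutation test and 0.171 after Benjamini-Hochberg adjustment over the 12.

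The mixture of variant transcripts within a library, taken by RPKM, differed accordingly. Its shares compare genes of different length, so they are read between groups only. In the empty vector H3-3A gave 42.8% ± 3.24 (SD, n = 3) and H2AZ1 39.9% ± 4.23 (SD, n = 3) of the summed RPKM of the 9 members. In the hPRM1-labelled libraries, H3-3A gave 83.6% ± 1.70 and H2AZ1 1.94% ± 0.416 (SD, n = 3 each), and H3-3B, at 9.82% ± 0.776, came next after H3-3A. The hPRM2 libraries had 51.8% ± 5.40 H3-3A and 32.4% ± 4.89 H2AZ1 (SD, n = 3 each), whose ranges of 45.7% to 55.6% and 28.5% to 37.9% touched those of the empty vector. The summed RPKM itself was 5875 to 6089 in the empty vector, 2585 to 3172 in the hPRM1-labelled libraries and 4532 to 6506 in hPRM2.

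**Figure D3:**
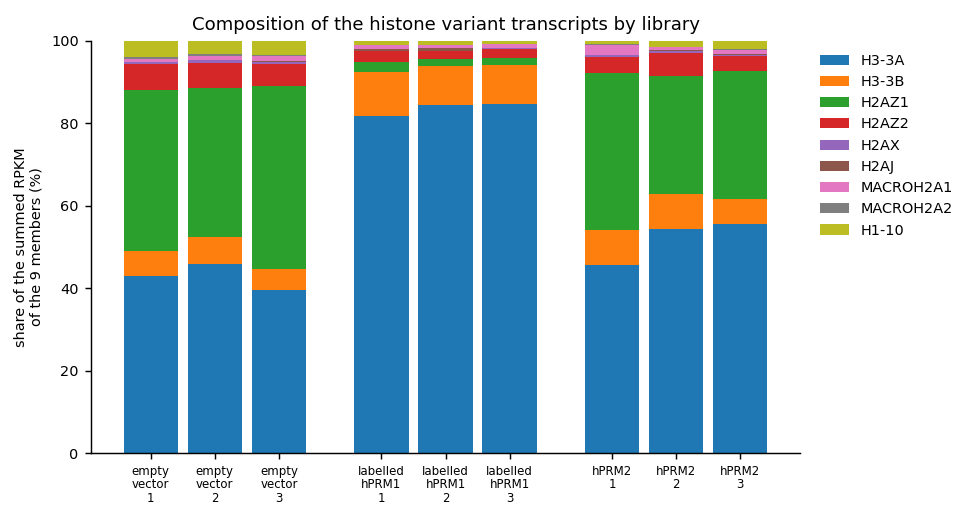
Share of each member in the summed RPKM of the 9 histone variants (y axis, %), one stacked bar per library. H2AZ1 takes 36.2% to 44.5% of the bar in the empty vector, 28.5% to 37.9% in hPRM2 and 1.63% to 2.42% in the hPRM1-labelled libraries, where H3-3A fills 81.7% to 84.8%.

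Ordered by level in the empty vector, H3-3A and H2AZ1 came first with overlapping values, then H2AZ2 and H3-3B, which also overlapped, then H1-10 and MACROH2A1, then H2AX and MACROH2A2 with overlapping values, and H2AJ last. In the hPRM1-labelled libraries the order was H3-3A, H3-3B, then H2AZ2 and H2AZ1 with overlapping values, H1-10, MACROH2A1, H2AJ, H2AX and MACROH2A2, and apart from the H2A.Z genes no neighbours overlapped. In hPRM2, H3-3A and H2AZ1 again came first and overlapped, H3-3B and H2AZ2 followed without overlap, MACROH2A1 and H1-10 overlapped, and H2AX, MACROH2A2 and H2AJ came last, the last pair with overlapping values. These orders compare RPKM between genes of different length read at their 3′ ends.

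Counted over the members, 6 of 9 were called lower in the hPRM1-labelled libraries than in the empty vector and 0 were called higher, where a call needed an adjusted p of at most 0.05 and a change of at least 2-fold. Of all 13588 genes tested, 62.5% were called lower and 12.9% higher, so the members' share of lower calls was close to that of all genes. All but H3-3A and H2AJ, 7 of 9, lay below the empty vector in every library, as did 66.4% of all genes. The median log2 fold change was -2.43 over the 9 members, all of which passed the filter on low values, and -1.72 over all genes. Among the 6983 genes at 10 RPKM or more in 3 or more of the 6 libraries it was -2.43, like that of the members. After median-of-ratios rescaling 2 members were lower (H2AZ1 and MACROH2A2) and 4 higher (H3-3A, H3-3B, MACROH2A1 and H2AJ), against 25.1% lower and 32.6% higher among all genes. After quantile normalization 3 were lower, H2AX joining H2AZ1 and MACROH2A2, and 3 were higher, with 32.3% and 25.6% of all genes.
For hPRM2 against the empty vector, 0 of the 9 members were called by limma, against 1.37% lower and 1.36% higher among 13126 genes tested. Before adjustment, H1-10 and MACROH2A2 and 3351 genes in all were under 0.05 in limma. The per-gene test named in the study's methods also called 0 members, and 0 genes in all with 2206 under 0.05. H1-10, H2AZ2 and MACROH2A2 lay below the empty vector in every library, 3 of 9 members, where 29.9% of all genes did so. The median log2 fold change was -0.50 over the members and -0.72 over all genes. By the estimate from the RPKM values, the hPRM2 libraries hold the fewest reads on genes. Their replicate 1, at an estimated 2640000 reads, had 9652 genes above 0, against 14353 and 15633 in replicates 2 and 3. Without hPRM2 replicate 1, limma called 1619 genes lower and 810 higher. The part of depth or of this library in the number of calls was not tested.

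**Figure D4:**
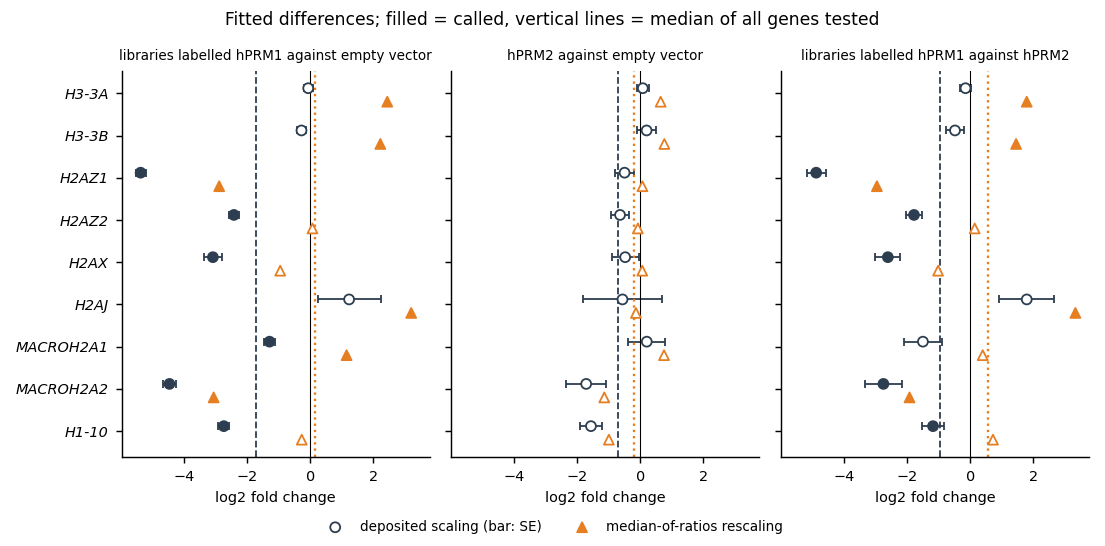
Log2 fold change (x axis) of the 9 members (y axis) in the 3 comparisons. Circles with SE bars are the deposited scaling and triangles median-of-ratios rescaling, filled where called. Vertical lines mark the median of all genes tested (dashed for deposited, dotted for rescaled). For the hPRM1-labelled libraries, H2AZ1 and MACROH2A2 lie left of both medians, whereas the H3.3 genes lie right of the median of the same scaling.

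The hPRM1-labelled libraries, in which PRM1 was listed at 0, were also set against hPRM2. In the hPRM1-labelled libraries, 5 of 9 members were called lower than in hPRM2 and 0 higher, against 37.0% and 16.0% of the 11756 genes tested. They were H2AZ1 (log2 fold change -4.89, SE 0.31, limma adjusted p = 0.000133), MACROH2A2 (-2.75, SE 0.58, limma adjusted p = 0.00834), H2AX (-2.61, SE 0.39, limma adjusted p = 0.00207), H2AZ2 (-1.78, SE 0.26, limma adjusted p = 0.00195) and H1-10 (-1.18, SE 0.35, limma adjusted p = 0.0294). The H1-10 call was lost when any library other than hPRM2 replicate 1 was left out (limma adjusted p up to 0.1). MACROH2A1 missed the threshold at -1.50 (SE 0.60, limma adjusted p = 0.0782) but was called without hPRM2 replicate 2, at -1.96 (limma adjusted p = 0.0355), and H3-3A (-0.15) and H3-3B (-0.48) were not called. The median of all genes was -0.97 here, and -1.69 over the 5347 genes at 10 RPKM or more in 3 or more of the 6 libraries. Only H2AZ1 and MACROH2A2 stayed lower after median-of-ratios rescaling, at -2.96 and -1.93, where H3-3A, H3-3B and H2AJ were called higher, with 18.5% of all genes lower and 30.8% higher.

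The genes that deposit, exchange and read these variants were mostly lower in the hPRM1-labelled libraries, as the median gene was. Of the 8 genes for H3.3 deposition, 7 were tested and 6 were lower, where 62.5% of all genes were, among them the H3-H4 chaperones ASF1B (59.2 ± 8.09 RPKM in the empty vector against 5.80 ± 1.28 in the hPRM1-labelled libraries, SD, n = 3 each; log2 fold change -3.15, limma adjusted p = 2.9e-05) and ASF1A (-2.97, limma adjusted p = 8.04e-05). UBN1, a subunit of the HIRA complex, was higher, with 74.8 ± 33.6 RPKM in the empty vector, against 146 ± 31.7 RPKM in the hPRM1-labelled libraries (SD, n = 3 each; log2 fold change 1.03, limma adjusted p = 0.0277), a call that was lost when any 1 library except empty vector replicate 2 was left out (limma adjusted p up to 0.0912). HIRA itself was listed at 0 in the 6 empty vector and hPRM2 libraries and had 0.210 to 0.755 RPKM in the hPRM1-labelled libraries. After median-of-ratios rescaling the 7 tested genes split into 1 lower, 2 higher and 4 not called, with 25.1% of all genes lower and 32.6% higher.
Of 20 genes for H2A.Z exchange, 19 were tested, 15 were lower and 0 higher in the hPRM1-labelled libraries, beside 62.5% lower and 12.9% higher among all genes. The largest difference was in YEATS4 (GAS41), a reader shared by SRCAP and TIP60/p400 (log2 fold change -4.45, limma adjusted p = 5.84e-05). It had 261 ± 43.0 RPKM in the empty vector, against 12.03 ± 7.01 RPKM in the hPRM1-labelled libraries (SD, n = 3 each). ACTR6, a subunit of SRCAP, came next (-4.41, limma adjusted p = 1.03e-05). YEATS4 was also the 1 gene of the list called lower in hPRM2, at 72.9 ± 14.5 RPKM (SD, n = 3; -1.83, limma adjusted p = 0.0385), but not when any library other than hPRM2 replicate 1 was left out (limma adjusted p up to 0.173). Against hPRM2, 12 genes of this list were lower in the hPRM1-labelled libraries, where 37.0% of all genes were, among them ACTR6 (-4.95, limma adjusted p = 0.0103) and the ATPase RUVBL1 (-3.76, limma adjusted p = 0.000549). The hPRM2 values of ACTR6 were 209, 15.3 and 11.2 RPKM, and without replicate 1 its difference was -3.65 (limma adjusted p = 0.000327), without replicate 3 -5.70. After median-of-ratios rescaling 7 genes of the list were lower and 4 higher against the empty vector, beside 25.1% and 32.6% of all genes.
All 14 genes that phosphorylate, dephosphorylate or read H2AX were tested against the empty vector, and 12 were lower in the hPRM1-labelled libraries and 0 higher, beside 62.5% and 12.9% of all genes. PRKDC, the catalytic subunit of DNA-PK, had 86.6 ± 13.7 RPKM in the empty vector, 1.43 ± 0.785 RPKM in the hPRM1-labelled libraries and 69.4 ± 6.71 RPKM in hPRM2 (SD, n = 3 each), with a log2 fold change of -5.21 against the empty vector (limma adjusted p = 1.14e-05) and -4.91 against hPRM2 (limma adjusted p = 0.000226). RNF8, a ubiquitin ligase recruited to phosphorylated H2AX, was 4.05 lower on the log2 scale than in the empty vector (limma adjusted p = 0.000162). The kinase ATR was 2.48 lower than in hPRM2 (limma adjusted p = 0.0371). ATR had 72.2, 10.4 and 16.4 RPKM in hPRM2, its difference was -1.69 without replicate 1 (limma adjusted p = 0.0214), and the call was lost without hPRM2 replicate 3 or any 1 of the hPRM1-labelled libraries (limma adjusted p up to 0.128). No gene of this list was called in hPRM2, and 1 of its genes, EYA1, was also among the HEK293T markers. With median-of-ratios rescaling 6 of the 14 were lower and 2 higher, beside 25.1% and 32.6% of all genes.
Among general histone chaperones, all 13 were tested and all 13 were lower in the hPRM1-labelled libraries, both against the empty vector and against hPRM2, where 62.5% and 37.0% of all genes were. NPM1, a nucleolar chaperone, had 950 ± 217 RPKM in the empty vector, against 15.3 ± 3.27 RPKM in the hPRM1-labelled libraries (SD, n = 3 each; -5.86, limma adjusted p = 4.59e-06). RBBP7, a subunit of several histone-modifying complexes, fell by 4.70 on the log2 scale (limma adjusted p = 1.13e-05). The median of the list was -3.53, against -1.72 for all genes and -2.43 for genes at 10 RPKM or more in 3 or more of the 6 libraries. After median-of-ratios rescaling 8 of the 13 were lower and 0 higher (25.1% and 32.6% of all genes), with a median of -1.23 against 0.14. No chaperone was called in hPRM2, where the list's median was -0.37.

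**Figure D5:**
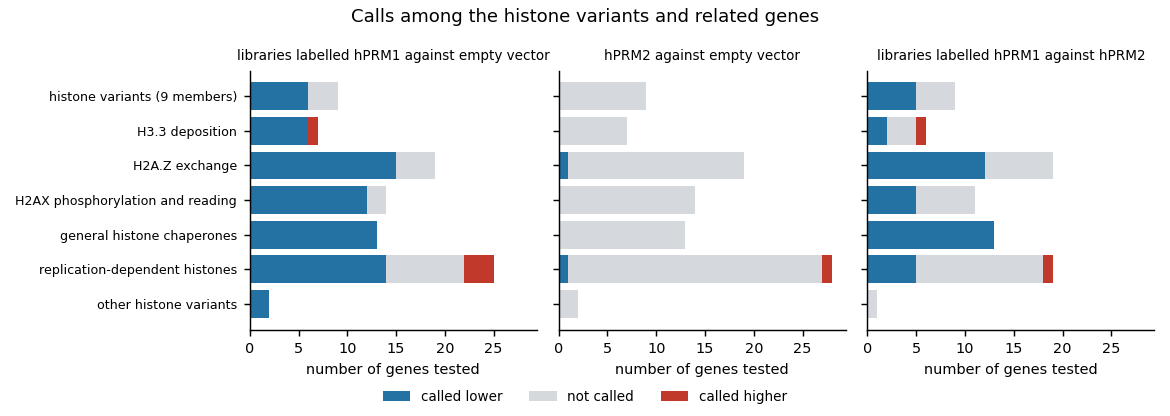
Number of genes tested (x axis) in each group of genes (y axis) that were called lower, not called or called higher in the 3 comparisons, in the deposited scaling. All 13 general chaperones are lower in the hPRM1-labelled libraries, and the hPRM2 comparison has 3 calls in all.

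Many of the other histone genes were listed at 0 or were too low to be tested. Of 14 further variant genes, most of them known from testis, oocytes or centromeres, 8 were listed at 0 in all 9 libraries and 2 were tested. CENPA, the centromeric H3 variant, had 23.9, 43.1 and 36.3 RPKM in the empty vector and was listed at 0 in the 3 hPRM1-labelled libraries and in hPRM2 replicate 2. It was called lower in the hPRM1-labelled libraries (limma adjusted p = 8.74e-06).
Of 58 replication-dependent histone genes in the table, 17 were listed at 0 in every library and 25 were tested between the hPRM1-labelled libraries and the empty vector, where 14 were lower and 3 higher, shares near the 62.5% and 12.9% of all genes. H4C3 had the highest level, at 13290 ± 2451 RPKM in the empty vector, 81.3 ± 47.3 RPKM in the hPRM1-labelled libraries and 4863 ± 2632 RPKM in hPRM2 (SD, n = 3 each). The log2 fold change of H4C3 was -7.48 against the empty vector (limma adjusted p = 1.1e-05) and -5.91 against hPRM2 (limma adjusted p = 0.000422). H4C2, at 18.1 to 47.9 RPKM in the empty vector, was listed at 0 in the hPRM1-labelled libraries and called lower, and H4C5 was called lower there than in hPRM2. H2AC6 was 2.67 higher on the log2 scale in the hPRM1-labelled libraries than in the empty vector (limma adjusted p = 0.00185), at 18.7 ± 4.19 against 2.47 ± 2.15 RPKM (SD, n = 3 each). H4C16, listed at 0 in the empty vector, was at 1.45 to 3.21 RPKM in the hPRM1-labelled libraries. In hPRM2, H2AC13 was the 1 gene of the list called lower, listed at 0 in all 3 libraries, and H2BC6 the 1 called higher (0.516 to 19.4 RPKM in the mean, limma adjusted p = 0.0395), and both calls were lost when any library other than hPRM2 replicate 1 was left out (limma adjusted p up to 0.17). The median of the list in the hPRM1-labelled libraries, -1.71, was close to that of all genes, -1.72. Most of these messages lack a poly(A) tail, which the 3′ libraries select for.

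For each member, the protein-coding gene with the most similar profile was sought by Pearson correlation of log2(RPKM + 1) over the 9 libraries, among 11828 genes. The points share libraries and their scaling, so the coefficients are descriptions. CKB, a creatine kinase, followed H2AZ1 most closely (r = 0.999), with a mean of 3465 RPKM in the empty vector, 8.94 in the hPRM1-labelled libraries and 2669 in hPRM2. The closest profiles were those of RRAGA for H2AZ2 (r = 0.996), ZBTB5 for H2AX (r = 0.998), TIMM9 for MACROH2A2 (r = 0.997), FOXRED1 for H1-10 (r = 0.997) and ID3 for MACROH2A1 (r = 0.991). For H3-3B it was CCDC113 (r = 0.979), and the lowest values belonged to AMDHD2 for H2AJ (r = 0.904) and SIPA1L2 for H3-3A (r = 0.876). Several of these genes lay low. Group means were 0.0263 to 10.4 RPKM for CCDC113, 1.39 to 4.59 for AMDHD2 and 1.24 to 2.43 for SIPA1L2. For ZBTB5 they were 0.606 to 4.22 RPKM and for FOXRED1 1.21 to 11.1 RPKM.

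Copies and overlapping genes bear on some of these values. Over the last 300 bases of their protein-coding transcripts, 8 annotated genes, all in the table, share a stretch of at least 100 bases with at least 95% identity with H3-3A, and their summed level was between 0 and 47.6 RPKM in any library, nearly all of it in H3P13. H3-3B shares such a stretch with H3-5 alone, whose level was at most 1.17 RPKM, and for the other 7 members no copy was found. H3.3 reads could therefore be split with copies to a small part. Genes on the opposite strand overlap 6 members, and their highest levels were 22.3 RPKM for UNK at H3-3B, 14 RPKM for H1-10-AS1 at H1-10, 4.91 RPKM for an antisense gene at MACROH2A1 and 2.01 RPKM for AIFM2 at MACROH2A2. The sources used here do not state whether reads were counted by strand.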

How the data were processed

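The 9 libraries, 3 each for empty vector, hPRM1 and hPRM2 in HEK293T cells as labelled, were made with the QuantSeq 3′ kit. The authors processed reads with FastQC, cutadapt, STAR and Salmon (hg38; versions not given in the sources used here), removed mitochondrial genes and deposited RPKM values, the counts divided by total reads and gene length. Reads on genes were estimated with GENCODE 29 lengths (600 to 20000 bases, less 250), and intervals cover counting error only.
Values were compared on log2(RPKM + 1) with limma 3.58.1 in R 4.3.3 (lmFit, eBayes with trend and robust). Genes at 1 RPKM or more in 3 or more of 6 libraries were tested, with Benjamini-Hochberg adjustment. The fit was tried on simulated data with few changed genes and a spread modelled on the empty vector. That setting differs from these data, so it does not show how the fit behaves on them. Ratios within libraries were compared with exact permutation tests written in Python, and the exact interval of the summed reads came from SciPy 1.17.1. Near-identical copies were sought with blastn. Other steps used Python 3.11.15 and pandas 2.3.3.
Members, lists and tests were chosen with earlier results of these data known. Named from each list and comparison are at most 2 called genes per direction with the largest change, and some genes are not reported here by name. For the closest profiles, genes on chromosomes X and Y, HLA genes and immunoglobulin and T cell receptor genes were left out. Alternatives were pseudocounts of 0.1 and 5, other filters (none, or a minimum of 10), 2 rescalings, a joint fit of the 9 libraries, a replicate block, no fold threshold, the per-gene test of the methods and leaving out each library.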

Additional observations from a re-analysis of the deposited data

Results flagged for a closer look

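These members are listed because the hPRM1-labelled libraries differed from hPRM2 in the limma test. PRM1 was listed at 0 in the former, so the values compare libraries as labelled. The log2 fold changes were -4.89 for H2AZ1, -2.75 for MACROH2A2, -2.61 for H2AX, -1.78 for H2AZ2 and -1.18 for H1-10. The differences of H2AZ1 and MACROH2A2 were also called after median-of-ratios rescaling and after quantile normalization, whereas that of H1-10 turned to 0.72 and 0.29 and was not called. All HEK293T markers were listed at 0 in the hPRM1-labelled libraries, and the part of this in the differences was not tested.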

How the results depend on the processing

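The scaling of the libraries moved most results. With median-of-ratios rescaling, the counts of members called lower and higher in the hPRM1-labelled libraries against the empty vector became 2 and 4, and with quantile normalization 3 and 3. Against hPRM2 they became 2 and 3, and 3 and 3, while the per-gene test gave 3 lower. For hPRM2 against the empty vector, 1 member was lower in the fit of all 9 libraries (H1-10) and 2 (H1-10, MACROH2A2) without hPRM2 replicate 1, a range of 0 to 2 when any 1 library was left out. Leaving out a library gave 6 lower in the hPRM1-labelled libraries against the empty vector in every case, and 4 to 5 against hPRM2.
Differences that changed sign under median-of-ratios rescaling were, in the hPRM1-labelled libraries against the empty vector, H2AZ2 (0.067), H3-3A (2.44), H3-3B (2.22) and MACROH2A1 (1.15). In hPRM2 they were H2AZ1 (0.069) and H2AX (0.063), and between the hPRM1-labelled libraries and hPRM2 H1-10 (0.72), H2AZ2 (0.14), H3-3A (1.79), H3-3B (1.46) and MACROH2A1 (0.40). Under quantile normalization they were H3-3A (2.11), H3-3B (1.61) and MACROH2A1 (0.41) for the hPRM1-labelled libraries, H3-3A (-0.52) and H2AJ (0.083) for hPRM2, and H1-10 (0.29), H3-3A (2.61) and H3-3B (1.60) between the groups. Both rescalings change the median of all genes by construction. Without hPRM1 replicate 1, H3-3A turned to 0.039, in a range from -0.14. Without hPRM2 replicate 1, H3-3B (-0.029), MACROH2A1 (-0.45, up to 0.66) and H2AJ (0.32, down to -1.74) changed sign, as H2AJ did without empty vector replicate 3 (0.22). The cause of these changes was not tested.
Among ratios within libraries, a pseudocount of 5 reversed MACROH2A2 over MACROH2A1 between the hPRM1-labelled libraries and hPRM2 (0.091) and H2AJ over H2AX for hPRM2 (0.03). When 1 library was left out, the hPRM2 ratios ranged from -0.044 to 0.34 for H3-3B over H3-3A, from -0.41 to 0.036 for H2AZ2 over H2AZ1 and from -1.06 to 0.86 for H2AJ over H2AX, turning sign without hPRM2 replicate 1 and, for H2AJ, also without empty vector replicate 2 (0.19) or 3 (0.61). Deviations of same-numbered libraries from their group means correlated between -0.078 and 0.08. With so few libraries per group, this cannot tell whether the numbers mark paired samples. Under the replicate block, 6 members stayed lower against the empty vector and 4 against hPRM2, where H1-10 was lost (limma adjusted p = 0.0704), and genes called in hPRM2 over the whole table went from 180 lower and 179 higher to 8 and 49. Over all alternatives, 186 of 204 values and counts among the main results kept their direction and side of the threshold or, for counts, stayed within 1.5 times, 11 moved and 7 changed sign. The paralog ratios among them could not change side, since their exact tests cannot give a p below 0.1. For these ratios the tally records changes of sign only. Of 429 values of single members 380 kept direction and call, 24 changed sign, 16 lost the call and 9 gained one. Over all settings, whole-table calls in hPRM2 ranged from 0 to 1619 lower and 0 to 810 higher, in the hPRM1-labelled libraries from 3412 to 8917 lower and 1152 to 4434 higher (8491 and 1750 as reported), and between the hPRM1-labelled libraries and hPRM2 from 2173 to 5563 lower and 1098 to 3616 higher (4355 and 1879 as reported). MACROH2A2 rests on 6 reads in the hPRM1-labelled libraries and H2AJ on at most 59.2 reads, so depth limits both most.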
